A study of Drosophila melanogaster with 60 samples.

Results

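The Turandot genes of Drosophila melanogaster encode small secreted proteins that fat body cells release into the hemolymph after heat, ultraviolet light, wounding or bacterial infection. Their transcription is known to depend on the JAK/STAT pathway, in which Unpaired ligands act through the receptor Domeless, the kinase Hopscotch and the transcription factor Stat92E, and the stress kinase Mekk1 and the Imd pathway factor Relish are known inputs for TotA. Turandot proteins have been reported to shield the fly's own cells from antimicrobial peptides. TotA (CG31509), TotC (CG31508), TotM (CG14027) and TotX (CG31193) were taken from the deposited tables by gene name or CG number, 4 of 8105 genes listed in either table. All 4 were measured in the overexpression experiment, and TotA, TotC and TotM in the RNAi experiment. TotX was not analysed in the RNAi experiment, and TotB, TotE, TotF and TotZ, the other genes of the family, were not analysed here.

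Fly heads were profiled by 3′ RNA-seq, which counts reads near the poly(A) end of transcripts, in 60 libraries from 2 experiments on cabut (cbt), the gene of a zinc finger transcription factor. In the first experiment the libraries labelled OE carry Tim-gal4 and UAS-cbtFLAG, and their controls, labelled conOE, carry Tim-gal4 only. In the other, the libraries labelled RNAi carry Tim-gal4 and UAS-cbt RNAi, and their controls, labelled conRNAi, carry Tim-gal4 and UAS-Dcr2. As labelled, the RNAi and conRNAi groups differ in UAS-Dcr2 as well as in UAS-cbt RNAi, and the parts of these transgenes cannot be told apart. The 4 genotypes thus share the Tim-gal4 driver, which is active where the clock gene timeless is expressed, among other cells in clock neurons, photoreceptors and glia. Collection was at Zeitgeber times (ZT, in hours from lights on) 3, 7, 11, 15, 19 and 23, in 2 replicate courses per genotype for overexpression and 3 for RNAi. This gave 12 libraries each of OE and conOE and 18 each of RNAi and conRNAi. The labels state neither sex nor age, nor whether courses came from separate flies, and a p-value here therefore speaks only of the spread among libraries, which may be technical.

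Several facts of the whole series bear on the values below. The libraries held between 349019 and 13922764 recovered reads, with 7 of 60 under 1000000. Markers of photoreceptors (9 of 9 genes), neurons (7 of 7) and glia (6 of 6) were listed in both tables, as the label of head tissue requires. In the overexpression experiment the level of cbt, the targeted gene, was opposite to the label: it was at 95.4 ± 25.5 normalised reads in OE libraries and 285 ± 31.4 in conOE libraries (SD, n = 12 each), and limma gave a log2 change of -1.61 (SE 0.121, adjusted p = 3.41e-11). In the RNAi experiment cbt was at 308 ± 55.5 in RNAi libraries and 318 ± 36.7 in conRNAi libraries (SD, n = 18 each), a log2 change of -0.06 (limma adjusted p = 0.618), whose sign turned without RNAi course 3 (0.010) and without ZT23 (0.015). The transgene's 3′ end is not given in the labels, so its transcripts may not be counted. The groups are therefore called by their labels, and every direction is that of a labelled group against its labelled control.

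In the Release 6 annotation, which is of another build than the deposited tables and is used here only for gene order and structure, TotA and TotC lie next to each other on arm 3R, in one row with TotB and TotZ. TotX lies on the opposite strand of the same arm, with 5 protein-coding genes between it and TotA, among them the other 3 of that row. TotM is on arm 2L. TotA and TotC are annotated with 1 transcript of 2 exons each, TotX with 1 transcript of 1 exon and TotM with 2 transcripts. Each table lists 1 transcript per Turandot gene, and no other row repeats its values. TotA and TotC are close relatives, and how reads that match more than 1 family member were assigned is not given in the sources used here, so their separate values are uncertain to that extent.

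All 4 Turandot genes rose in the libraries labelled OE. TotC was 13.8-fold higher and TotA 9.93-fold higher on the fitted scale, TotM 6.53-fold and TotX 4.92-fold. For TotA, TotC and TotX the 12 OE libraries all lay above the 12 conOE libraries. Of 7648 genes tested, 22.7% were called higher in OE libraries at an adjusted p under 0.05, and 4.17% had all OE libraries above all conOE libraries. These are heads as bulk samples, in which a change in the number of cells of a type and a change in RNA per cell cannot be told apart.

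TotA had normalised read counts of 5474 at the lowest, 11844 at the median and 15208 at the highest in the 12 OE libraries, against 325, 1180 and 2427 in the 12 conOE libraries. The lowest OE library (course 1, ZT23) was thus above the highest conOE library (course 1, ZT11). The log2 change was 3.31 (SE 0.248, limma adjusted p = 3.36e-11), rank 24 of 7648 genes by size of increase. TotC had 7619, 15508 and 31632 in OE libraries, against 242, 1323 and 3261 in conOE libraries, and its ranges did not overlap either. Its log2 change of 3.78 (SE 0.334, limma adjusted p = 7.17e-10) was rank 16. Both genes rest on many reads, at least 1416 for TotA and 2575 for TotC in any OE library, and at least 304 and 320 in any conOE library.

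TotX, the gene on the opposite strand, had 118, 200 and 366 normalised reads in OE libraries at the lowest, median and highest, against 18.6, 53.3 and 64.2 in conOE libraries. Those ranges did not overlap, although single libraries held as few as 30 reads of TotX in OE and 13 in conOE. The log2 change was 2.30 (SE 0.171, limma adjusted p = 2.99e-11), rank 61. TotM, the gene on the other chromosome, had 378, 2027 and 3695 in OE libraries, against 113, 170 and 1667 in conOE libraries, and here the groups overlapped. Its log2 change was 2.71 (SE 0.406, limma adjusted p = 5.92e-06), rank 40.

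The overlap of TotM came from few libraries. Of 12 OE libraries, 8 lay above all conOE libraries, and all 12 lay above the conOE median. The lowest OE values were 378 in course 2 at ZT7 and 541 in course 1 at ZT23. The highest conOE values were 1667 in course 1 at ZT19 and 865 in course 2 at ZT23, while the other 10 conOE libraries were at 430 or below. In the conOE library at 1667, TotC was also at its control maximum of 3261, and TotA was at 1883, below its control maximum.

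**Figure D1:**
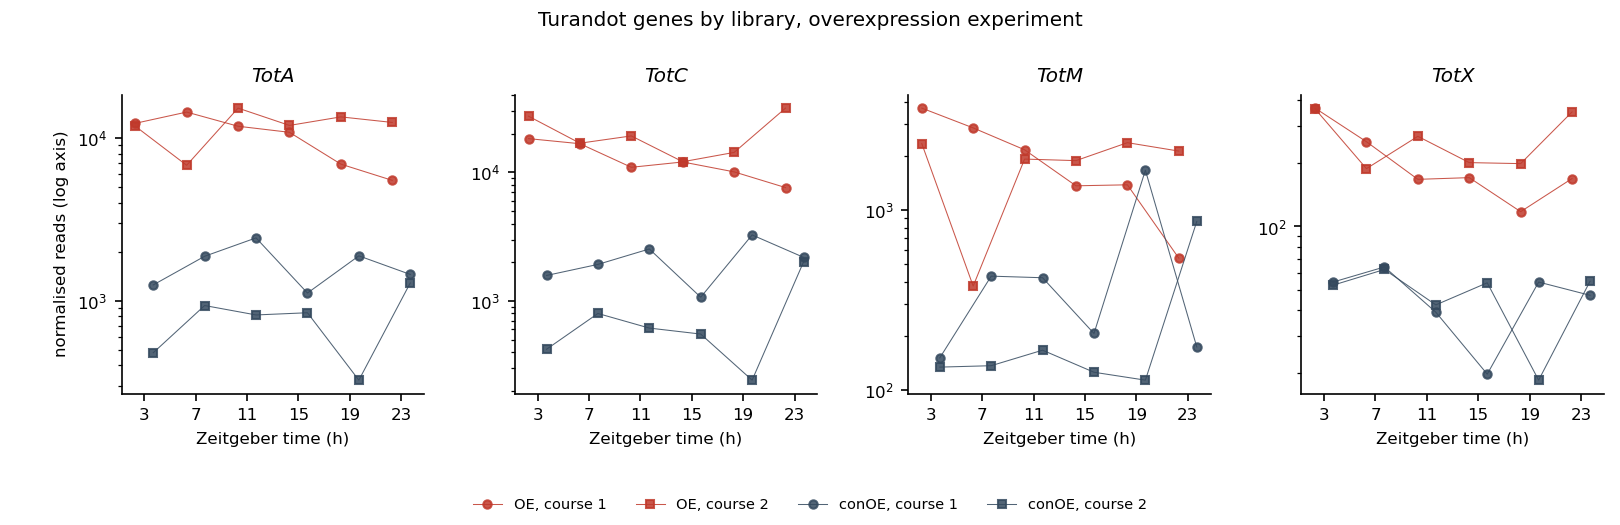
Normalised reads (log axis) of TotA, TotC, TotM and TotX against Zeitgeber time in hours, 1 point per library, OE in red and conOE in dark blue, with circles for course 1 and squares for course 2. OE points lie above all conOE points for TotA, TotC and TotX, while TotM overlaps, with OE values down to 378 and 541 and conOE values up to 1667 and 865.

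Replicate courses of one genotype did not always lie together. The OE courses had means of 10262 and 11920 for TotA, 12624 and 20249 for TotC, 2003 and 1840 for TotM, and 207 and 262 for TotX (courses 1 and 2). The 2 conOE courses stood apart in 3 of the 4 genes. TotA averaged 1665 in conOE course 1 and 780 in course 2, TotC 2092 and 773, and TotM 508 and 257, whereas TotX averaged 46.5 and 47.5. The summed antimicrobial peptide genes were higher in the same course, at levels of 2231 to 6208 in conOE course 1 and 1101 to 2348 in conOE course 2. No test was made between courses.

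The size of the change depended on which course was left out, but the calls did not. Without 1 course the log2 change ran from 2.95 (without conOE course 2) to 4.62 (without conOE course 1) for TotC and from 2.72 to 3.90 for TotA. It ran from 2.25 to 3.16 for TotM and from 2.11 to 2.49 for TotX. The highest limma adjusted p among these was 0.000498, for TotM without OE course 2. With 1 value per course, a comparison of 2 OE with 2 conOE courses, all 4 still passed, at limma adjusted p-values from 1.27e-05 (TotX) to 0.000419 (TotC). Neighbours in the order TotC, TotA, TotM, TotX differed in log2 change by less than the sum of their SEs, and differences between genes were not tested.

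In the RNAi experiment the measured Turandot genes fell in the libraries labelled RNAi, by less and less evenly. TotM fell by 1.31 on the log2 scale (SE 0.336, limma adjusted p = 0.00301), TotC by 1.24 (SE 0.375, limma adjusted p = 0.0123) and TotA by 0.78 (SE 0.205, limma adjusted p = 0.00365). From the lowest change upward these were ranks 14, 18 and 96 of 7444 genes, of which 13.1% were called lower. All 3 calls were lost without RNAi course 2, as described below. The ranges overlapped for each gene, and 0.403% of all genes had all RNAi libraries below all conRNAi libraries.

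TotA had 80.4 normalised reads at the lowest, 171 at the median and 909 at the highest of the 18 RNAi libraries, against 191, 315 and 601 in the 18 conRNAi libraries. Of the RNAi libraries, 12 lay below all conRNAi libraries and 1 lay above all of them. TotC had 14.97, 46.2 and 948 in RNAi libraries, against 47.9, 163 and 421 in conRNAi libraries. For TotC 9 RNAi libraries lay below all controls and 2 above all of them. TotM had 7.47, 22.5 and 159 in RNAi libraries, against 34.5, 51.8 and 184 in conRNAi libraries, with 12 RNAi libraries below all controls and 0 above.

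Most RNAi libraries were therefore low and a few were high, which gave SDs close to or above the means. Mean values were 237 ± 202 in RNAi and 354 ± 129 in conRNAi libraries for TotA (SD, n = 18 each). TotC averaged 147 ± 234 in RNAi and 198 ± 110 in conRNAi libraries, and TotM 42.1 ± 47.9 in RNAi and 82.7 ± 55.4 in conRNAi libraries. The fitted log2 changes weigh the many low libraries more than these means do. At the low end depth limited the values, since 1 RNAi library held 1 read of TotM and 2 of TotC (course 2, ZT23, with 20 reads of TotA).

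The high RNAi libraries were the same for several genes. In course 1 at ZT23 TotA was at 909 and TotC at 948, the highest values of the experiment, and TotM was at 70.0. In course 3 at ZT7 TotA was at 564, TotC at 470 and TotM at 94.6. In course 3 at ZT11 the values were 376, 287 and 158, and at ZT23 they were 261, 278 and 159. The summed antimicrobial peptide genes were at 4558 in the first of these libraries and at 2163, 1891 and 4645 in the others. All of these lay above the median of 1715.5 over the RNAi libraries, which ran from 397 to 11161. Whether the peptide genes went with the Turandot genes was not tested. Their highest RNAi library was course 1 at ZT3, where TotA was at 183 and TotC at 57.6.

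**Figure D2:**
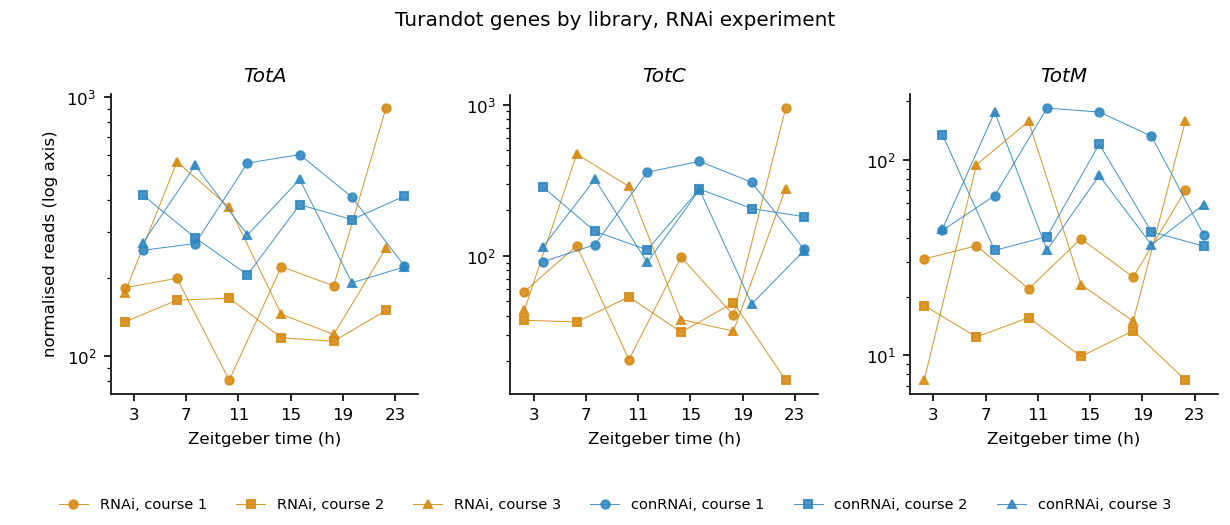
Normalised reads (log axis) of TotA, TotC and TotM against Zeitgeber time in hours, 1 point per library, RNAi in orange and conRNAi in light blue, with circles, squares and triangles for courses 1, 2 and 3. Most RNAi points lie low, RNAi course 2 lies lowest as a whole, and single RNAi points such as TotC at 948 in course 1 at ZT23 rise above all controls.

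RNAi course 2 was low throughout and carried the calls. TotA averaged 141 there, against 297 and 273 in RNAi courses 1 and 3, and 387, 341 and 334 in conRNAi courses 1, 2 and 3. TotC averaged 37.0 in RNAi course 2, with 213 and 191 in the other RNAi courses and 234, 200 and 159 in the conRNAi courses. TotM averaged 12.8 in RNAi course 2, with 37.4 and 76.1 in the other RNAi courses and 107, 68.3 and 72.4 in the conRNAi courses. Without RNAi course 2, TotA was at -0.55 (limma adjusted p = 0.0897), TotC at -0.74 (adjusted p = 0.199) and TotM at -0.79 (adjusted p = 0.107). The direction stayed, and none of the 3 passed.

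TotC was the least firm of the calls. It also missed the threshold with edgeR on the recovered reads (-0.77, adjusted p = 0.136) and with DESeq2 (-0.95, adjusted p = 0.0770). The same held in limma without ZT3, ZT15 or ZT19 and without conRNAi course 1 or 2, at adjusted p-values from 0.0549 to 0.114. TotA missed it without ZT15 (-0.61, limma adjusted p = 0.0521), and over its other alternatives apart from the courses its adjusted p was 0.0260 or lower. TotM passed in all alternatives run for the difference over all times except the one without RNAi course 2. Leaving out any single library lost no call.

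The difference was then asked at each ZT, where 2 OE libraries were set against 2 conOE libraries, in a fit whose spread was shared over all times. TotA, TotC and TotX passed at 6 of 6 times and the OE libraries lay above the conOE libraries at each, against 7.24% of all genes without overlap at 6 times. Of all genes 5.95%, 4.37%, 4.82%, 5.64%, 6.34% and 10.6% were called at ZT3, ZT7, ZT11, ZT15, ZT19 and ZT23. The TotA log2 change was largest at ZT3 (3.96) and smallest at ZT23 (2.60). TotC ran in the same way from 4.78 at ZT3 to 2.89 at ZT23, and TotX from 2.75 at ZT3 to 1.77 at ZT7. The SE of a change at a single time was 0.636 for TotA, 0.868 for TotC and 0.443 for TotX.

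TotM passed at ZT3 only. Its OE libraries were at 3695 and 2346 there, against 151 and 134 in conOE libraries, with a log2 change in limma of 4.36 (SE 0.987, adjusted p = 0.00965). At ZT15 it was at 1366 and 1886 in OE libraries, against 206 and 125 in conOE libraries (3.31, limma adjusted p = 0.0525, and 0.0396 with edgeR). TotM was without overlap at 3 of 6 times, like 27.3% of all genes at 3 or more times. At ZT23, with 541 and 2131 in OE libraries against 173 and 865 in conOE libraries, the log2 change was 1.47 (adjusted p = 0.356).

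In the RNAi experiment, 3 RNAi libraries were set against 3 conRNAi libraries at each time. In limma without a term for the replicate course, only TotA at ZT15 passed. Of all genes 3.98%, 1.67%, 1.97%, 3.57%, 3.13% and 6.82% were called at ZT3, ZT7, ZT11, ZT15, ZT19 and ZT23. It was at 221, 117 and 145 in RNAi libraries, against 601, 384 and 481 in conRNAi libraries, with a log2 change in limma of -1.62 (SE 0.479, adjusted p = 0.0486). TotC at ZT15 had 97.8, 31.1 and 37.7 in RNAi libraries, against 421, 276 and 274 in conRNAi libraries, also without overlap (-2.68, adjusted p = 0.0968). TotM at ZT15 had 39.6, 9.89 and 23.1 in RNAi libraries, against 176, 121 and 83.4 in conRNAi libraries (-2.47, adjusted p = 0.0865). ZT15 was thus the time at which the 3 genes were farthest apart between the groups, and it was also the time with the highest conRNAi means of all 3.

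At ZT23 none of the 3 genes was lower in the fit, with log2 changes of 0.27 for TotA, 0.31 for TotC and 0.006 for TotM, none of which passed. TotA was at 909, 150 and 261 in RNAi libraries at that time, against 223, 415 and 221 in conRNAi libraries, so a single RNAi library set the sign. RNAi libraries lay below all conRNAi libraries of the same time at 3 of 6 times for TotA and TotM and at 2 for TotC. Of all genes, 7.21% did so at 3 or more times and 13.3% at 2 or more. TotC at ZT7, at -0.48 in limma, was at 0.13 with edgeR.

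**Figure D3:**
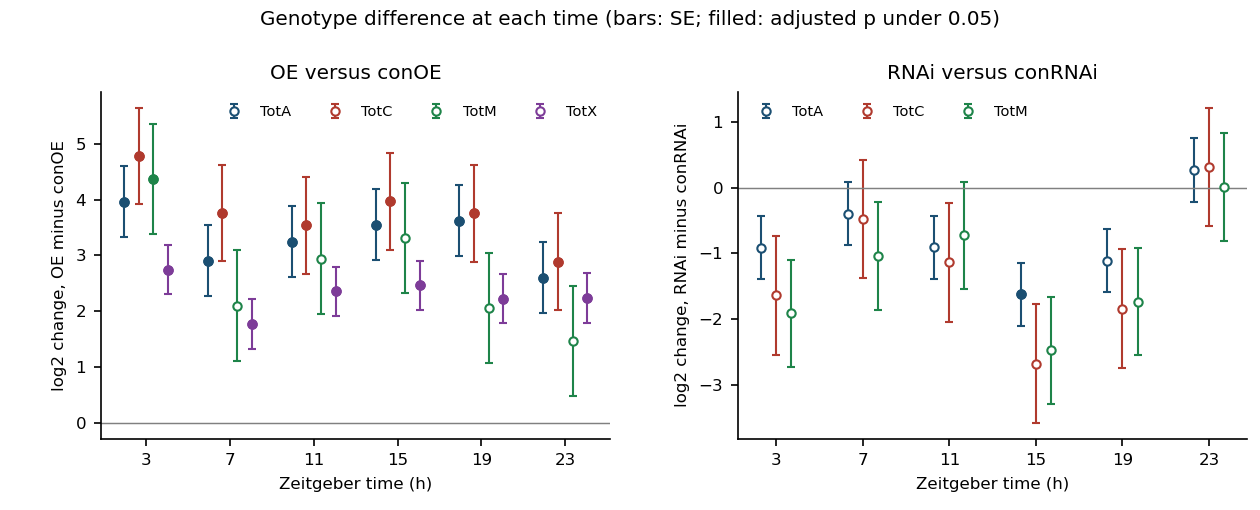
Log2 change of each Turandot gene (labelled group minus control) with its SE against Zeitgeber time in hours, OE versus conOE at left and RNAi versus conRNAi at right; filled points have an adjusted p under 0.05. All OE changes lie above 0, while RNAi changes lie below 0 except at ZT23, and TotA at ZT15 (-1.62) is the only filled RNAi point.

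Whether the genotype difference depended on time was tested by the joint genotype-by-time terms. No Turandot gene passed in either experiment, at unadjusted limma p-values from 0.378 (TotM) to 0.772 (TotC) for overexpression and from 0.132 (TotA) to 0.322 (TotM) for RNAi. Over all genes limma called 0 (0%) in both experiments, with 121 and 336 at an unadjusted p under 0.05, and edgeR also called 0, with 120 and 223. The contrast between ZT15 and ZT23 in the RNAi experiment is therefore a description of these libraries.

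None of the 4 genes was called rhythmic or changed over the day within a genotype. A 24 h wave passed for 0.601% of genes in OE, 1.2% in conOE, 2.18% in RNAi and 4.1% in conRNAi libraries, and any difference between times for 0.196%, 0.262%, 1.02% and 2.83%. TotX was nearest, with an unadjusted p of 0.0189 in OE and 0.0469 in conOE libraries (limma adjusted p = 0.398 and 0.480). In the authors' deposited table the rhythm q-value of TotX was 0.456 in OE and 0.450 in conOE libraries, and those of TotA, TotC and TotM were 1 in every genotype. By mean level TotX in OE libraries ran from 364 ± 2.05 at ZT3 through 260 ± 128 (ZT23), 221 ± 45.7 (ZT7), 218 ± 71.4 (ZT11) and 186 ± 21.6 (ZT15) to 158 ± 57.6 at ZT19 (SD, n = 2 each). From ZT23 down to ZT19, neighbours in this order overlapped, and ZT3 stood above ZT23 without overlap.

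The highest time differed between genotypes for the other genes. TotA means were highest at ZT11 in OE (13488 ± 2433) and at ZT11 in conOE libraries (1622 ± 1139, SD, n = 2 each), but at ZT23 in RNAi (440 ± 410) and at ZT15 in conRNAi libraries (489 ± 108, SD, n = 3 each). TotC means were highest at ZT3 in OE (22841 ± 6408), ZT23 in conOE (2097 ± 123), ZT23 in RNAi (414 ± 481) and ZT15 in conRNAi libraries (323 ± 84.5). TotM was highest at ZT3 in OE (3021 ± 954), ZT19 in conOE (890 ± 1099), ZT23 in RNAi (78.8 ± 76.1) and ZT15 in conRNAi libraries (127 ± 46.6). Several of these maxima rest on 1 library, as their SDs show.

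Most pairs of Turandot genes varied together between libraries of one genotype, with 11 of 18 relations past the threshold for r (2 of 6 in OE, 3 of 6 in conOE, 3 of 3 in RNAi and 3 of 3 in conRNAi libraries). The 18 relations were compared on log2 values by Pearson's r and Spearman's rho, each with 100000 permutations and Benjamini-Hochberg adjustment over the 18. In OE libraries, where both genes were high, TotA and TotC had r = 0.557 (rho = 0.594, n = 12, adjusted permutation p = 0.0834), and 0.468 without the 2 libraries farthest from the TotA median. Their r was 0.953 and rho 0.965 in conOE (n = 12), 0.927 and 0.860 in RNAi (n = 18), and 0.926 and 0.893 in conRNAi libraries (n = 18), each with an adjusted permutation p of 6e-05 for r, from the smallest p that these permutations can give. Without the farthest 2, r was 0.907, 0.837 and 0.900. The difference in r between OE and conOE libraries was not tested.

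Within single courses of 6 libraries, r of TotA and TotC ran from 0.104 to 0.868 in OE and from 0.794 to 0.928 in conOE libraries. It ran from -0.07 to 0.970 in RNAi libraries, where the pooled relation thus did not hold within each course, and from 0.871 to 0.966 in conRNAi libraries. TotC and TotM, on different chromosomes, had r = 0.408 in OE libraries (adjusted permutation p = 0.202). Their r was 0.755 in conOE, 0.850 in RNAi and 0.839 in conRNAi libraries (adjusted permutation p = 0.00655, 0.000108 and 0.000108), with 0.820 or more within every course of the RNAi experiment. TotA and TotM had r = 0.840 in OE, 0.664 in conOE, 0.713 in RNAi and 0.793 in conRNAi libraries, with adjusted permutation p-values of 0.0326 or lower. Without the 2 libraries farthest from the TotA median, their r was 0.575 in OE and 0.657 in conOE libraries, and within single RNAi courses it ran from 0.0711 to 0.949.

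TotX went with TotC in OE libraries (r = 0.853, rho = 0.881, adjusted permutation p = 0.00111), and without the 2 farthest libraries r was 0.883. In conOE libraries the same pair had r = 0.412 over both courses (adjusted permutation p = 0.202). Within single courses its r was 0.629 and 0.679 in conOE libraries, and 0.804 and 0.919 in OE libraries. The other TotX pairs did not pass for r, with values from 0.275 (TotM, conOE) to 0.586 (TotA, OE). All of these values share library depth and the deposited scaling.

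**Figure D4:**
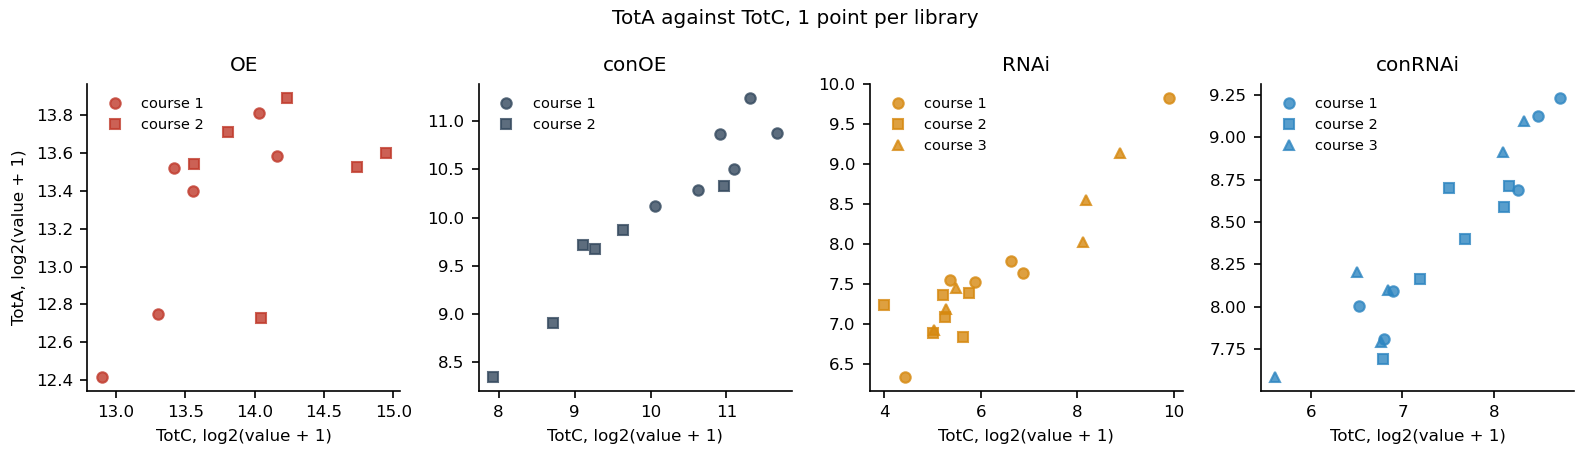
TotA against TotC, both as log2 of the normalised reads plus 1, with 1 point per library and 1 panel per genotype, markers giving the replicate course. The points scatter in OE libraries (r = 0.557) and lie closer to a line in conOE (r = 0.953), RNAi (r = 0.927) and conRNAi libraries (r = 0.926); axes differ between panels.

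Among all measured genes the closest patterns to TotA, TotC and TotM in the RNAi table were each other. By r over the libraries of a genotype, averaged over RNAi (n = 18) and conRNAi (n = 18), TotC followed TotA at 0.927 and TotM followed TotC at 0.845. The next gene was far lower, CG16865 at 0.523 for TotA and 0.586 for TotC, and CG8042 at 0.618 for TotM. CG16865 itself had a log2 change of 0.61 (limma adjusted p = 0.00376), opposite to the Turandot genes. Below it for TotA came Vago (0.491), an antiviral factor gene, and PGRP-SA (0.489), a recognition protein gene of the Toll pathway. Further genes were ste24a (0.565) and CG31436 (0.555) for TotC and Pgm2a (0.570) for TotM.

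In the overexpression table, averaged over OE (n = 12) and conOE (n = 12), TotC (0.755) and TotM (0.752) were again nearest to TotA, ahead of CG1468 (0.682), the thioredoxin reductase gene Trxr1 (0.656) and CG9240 (0.646). TotC was followed by TotA, FucT6 (0.691), iotaTry (0.685), l(1)G0020 (0.677) and SPR (0.674). TotM was followed by TotA, Odj (0.732), TM9SF3 (0.728), Polr2A (0.676) and CG17068 (0.673). TotX had no Turandot gene among its nearest 5, which were Nplp2 (0.811), Mpc1 (0.765), CtsK2 (0.756), CG16743 (0.743) and tw (0.739). These likenesses describe the libraries and carry no test.

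Most changes of the JAK/STAT pathway genes were small beside those of the Turandot genes, with Tep2 the largest in both experiments. Of 13 measured genes in OE libraries 5 were higher, 2 lower and 6 did not pass, with a median log2 change of 0.05, beside 3.01 for the 4 Turandot genes and 0.01 for all genes, of which 22.7% were higher and 18.6% lower. The ligand genes upd1, upd2 and upd3 were not analysed here. The receptor gene dome was at 0.03 (adjusted p = 0.897) and the kinase gene hop at 0.05 (adjusted p = 0.876). Stat92E rose by 0.41 (limma adjusted p = 2.01e-05), at 253 ± 19.4 in OE and 190 ± 19.9 in conOE libraries (SD, n = 12 each). Tep2, the gene of a secreted thioester protein, rose by 1.58 (limma adjusted p = 5.82e-10). The others that rose, named after their values were seen, were the BTB zinc finger gene ken (0.62), the feedback inhibitor gene Socs36E (0.39) and the virus-induced gene vir-1 (0.35).

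Socs16D fell by 0.46 (limma adjusted p = 0.0159) and chinmo by 0.35 (limma adjusted p = 0.0361) in the same libraries. Their calls were lost without some courses or times, with adjusted p up to 0.108 for Socs16D (without conOE course 2) and 0.240 for chinmo (without conOE course 1). In RNAi libraries 0 of 12 measured pathway genes were higher, 2 were lower and 10 did not pass, with a median of -0.09, beside 9.23% higher and 13.1% lower of all genes. Tep2 fell by 0.59 (limma adjusted p = 2.14e-06) and vir-1 by 0.27 (limma adjusted p = 4.43e-05). Stat92E was at -0.11 (adjusted p = 0.209), dome at -0.31 (adjusted p = 0.232) and Socs36E at 0.13 (adjusted p = 0.410). The vir-1 call was lost with 1 value per course (adjusted p = 0.0734).

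Genes of the stress MAP kinase pathways were called lower more often than higher in OE libraries. Of 10 measured in OE libraries 1 was higher, 4 lower and 5 did not pass, with a median of -0.06, beside 22.7% higher and 18.6% lower of all genes. Mekk1 was at 0.14 (adjusted p = 0.506) and p38b at 0.04. The JNK kinase gene hep fell by 0.56 (limma adjusted p = 0.00257) and the p38 kinase kinase gene lic by 0.53 (limma adjusted p = 0.00116). Also lower, and named after their values were seen, were bsk (-0.41, limma adjusted p = 0.0042) and puc (-0.34, limma adjusted p = 0.0296). Tak1 rose by 0.40 (limma adjusted p = 0.0277), a call lost without OE course 1 (adjusted p = 0.181) and without conOE course 2, among other alternatives. In RNAi libraries 0 of 10 were higher and 1 was lower, counts near the shares over all genes (9.23% and 13.1%). The lower one was p38a, which fell by 0.54 (limma adjusted p = 0.00125).

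The Imd and Toll pathways, which sense bacteria and fungi, held several genes that rose in OE libraries. Of 12 measured Imd genes 6 were higher and 1 lower in OE libraries, with a median of 0.18, and of 11 Toll genes 5 were higher and 1 lower, with a median of 0.29, beside the same 22.7% and 18.6% of all genes. Rel, the gene of the Imd pathway factor Relish, rose by 1.23 (limma adjusted p = 2.38e-08), at 615 ± 79.8 in OE and 272 ± 85.1 in conOE libraries (SD, n = 12 each). SPE, the protease gene that matures the Toll ligand, rose by 1.85 (limma adjusted p = 2.43e-13), and PGRP-SD, a recognition protein gene counted in both lists, by 1.46 (limma adjusted p = 7.58e-11). Tab2 fell by 0.50 (limma adjusted p = 0.00302, and up to 0.0798 without conOE course 2). The adaptor gene tub fell by 0.36 (limma adjusted p = 0.00960, and up to 0.119 without conOE course 2).

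In RNAi libraries 1 of 12 Imd genes was higher and 4 were lower, and 0 of 11 Toll genes were higher and 5 lower (medians -0.02 and -0.18). Over all genes 9.23% were higher and 13.1% lower. PGRP-SD fell by 0.74 (limma adjusted p = 1.76e-08) and SPE by 0.73 (limma adjusted p = 1.11e-09). Rel fell by 0.31 (limma adjusted p = 0.00444). Its call was lost without ZT3 (adjusted p = 0.0581), without RNAi course 1, conRNAi course 1 or conRNAi course 3, with adjusted p up to 0.0860, and with 1 value per course (0.111). Diap2 rose by 0.16 (limma adjusted p = 0.0277), and its call was lost in several alternatives, with adjusted p up to 0.340.

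Antimicrobial peptide genes rose in OE libraries, and most did not pass in RNAi libraries. In OE libraries 8 of 8 measured were higher (22.7% of all genes), with a median log2 change of 4.59. AttD, CecA2, CecB, CecC, DptA and Dro were not analysed here, and CecA1 only in the overexpression experiment. The defensin gene Def rose by 4.64 (limma adjusted p = 1.42e-15) and the antifungal peptide gene Drs by 4.53 (limma adjusted p = 1.11e-14). In RNAi libraries 0 of 7 were higher, 1 was lower and 6 did not pass, with a median of 0.11. These counts were near the shares over all genes (9.23% higher and 13.1% lower). The peptide gene Mtk fell by 1.32 (limma adjusted p = 0.00946), a call lost without conRNAi course 1 (-0.98, adjusted p = 0.133) and without ZT11, ZT15 or ZT19 (adjusted p up to 0.143).

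Heat shock and oxidative stress genes went both ways. Of 14 measured in OE libraries 6 were higher and 2 lower, with a median of 0.12 (22.7% and 18.6% of all genes). Hsp27, a small heat shock protein gene, rose by 1.58 (limma adjusted p = 2.43e-05), at 24.2 ± 11.01 in OE and 7.27 ± 3.11 in conOE libraries (SD, n = 12 each). The mitochondrial superoxide dismutase gene Sod2 rose by 0.82 (limma adjusted p = 1.78e-07). DnaJ-1, the gene of a co-chaperone, fell by 0.52 (limma adjusted p = 4.25e-07) and the glutathione transferase gene GstD1 by 0.51 (limma adjusted p = 5.39e-07). In RNAi libraries 1 of 14 was higher and 2 were lower, with a median of -0.03, counts near the shares over all genes (9.23% and 13.1%). The catalase gene Cat fell by 0.49 (limma adjusted p = 1.78e-06). Hsp68 fell by 0.56 (limma adjusted p = 0.00544, and up to 0.0816 without conRNAi course 1), and Sod2 rose by 0.13 (limma adjusted p = 0.0381, lost in most course alternatives, with adjusted p up to 0.376 over all alternatives).

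**Figure D5:**
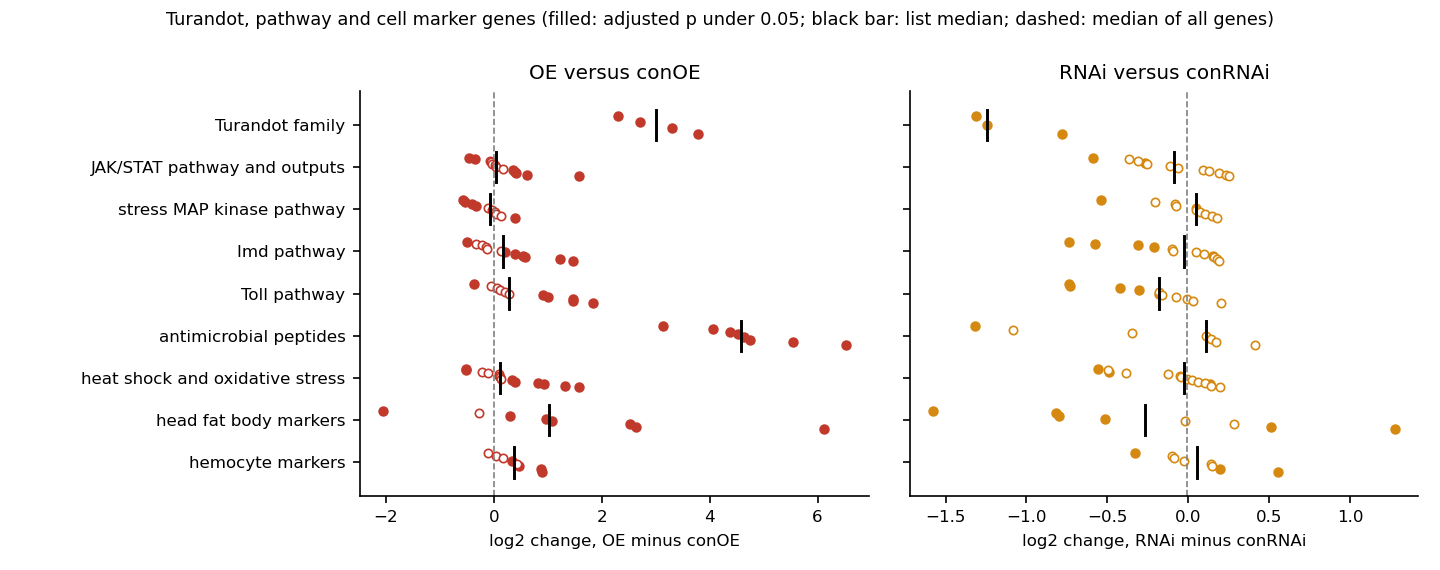
Log2 change (labelled group minus control) of each measured gene of 9 lists, OE versus conOE at left and RNAi versus conRNAi at right; filled points have an adjusted p under 0.05, black bars are list medians and the dashed line is the median of all genes. The Turandot median is 3.01 in OE and -1.24 in RNAi libraries, beside 4.59 and 0.11 for antimicrobial peptides and 0.05 and -0.09 for the JAK/STAT list.

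Markers of the fat body, where Turandot proteins are mainly made, were mostly higher in OE libraries. Of 8 measured markers 6 were higher and 1 lower (22.7% and 18.6% of all genes), and 1 did not pass. Their median log2 change was 1.02. FASN3 and Fbp1 were not analysed here. The summed level of the 8 measured markers was 37753 to 84677 normalised reads in OE libraries, against 8030 to 19517 in conOE libraries, without overlap. Much of that sum is 1 gene, since Lsp1beta averaged 36187 in OE and 971 in conOE libraries. The mean of apolpp was 7860 in OE and 6441 in conOE libraries. Lsp1beta rose by 6.11 and the lipid carrier gene apolpp by 0.30 (limma adjusted p = 1.16e-12 and 0.0337), while the perilipin gene Lsd-1 fell by 2.05 (limma adjusted p = 2.30e-10). The part of these markers in the Turandot result was not tested.

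In RNAi libraries the fat body markers were divided, with 2 higher and 4 lower of 8 (9.23% and 13.1% of all genes). Their median was -0.27. Lsp1beta fell by 1.58 and apolpp by 0.51, while Lsp2, another serum protein gene, rose by 1.28 (limma adjusted p = 6.39e-11, 6.21e-09 and 1.36e-05). Their summed level was 10829 to 23727 in RNAi libraries and 13898 to 33731 in conRNAi libraries, which overlapped. The 4 RNAi libraries in which TotC was highest had summed marker levels of 19833, 18302, 18337 and 15440, from the highest TotC down. The median over the RNAi libraries was 17791.

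Hemocytes, the blood cells that send the ligand of the pathway to the fat body, were also followed. Of 8 measured hemocyte markers 4 were higher and 0 lower in OE libraries (22.7% and 18.6% of all genes), with a median of 0.38. Their summed level was 1155 to 1603 in OE libraries and 829 to 1231 in conOE libraries. In RNAi libraries 2 were higher and 1 lower (9.23% and 13.1% of all genes), with a median of 0.06. Markers of neurons (0 higher, 4 lower of 7), photoreceptors (1 and 6 of 9) and glia (1 and 5 of 6) were mostly lower in OE libraries. In RNAi libraries the counts were 4 and 1, 0 and 2, and 1 and 0. The shares over all genes given for the hemocyte markers hold for these lists as well. Their part in the Turandot values was not tested either.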

How the data were processed

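Bowtie, TopHat and the genome build dm3 are named in the submitters' processing notes. Their versions, the annotation, and how reads were counted, scaled and filtered: not given in the sources used here. The authors deposited 1 table per experiment with a normalised signal per transcript and library, and rhythm p-values and q-values per genotype, of which the q-values were read for the Turandot genes. From the values, each signal is a read count over 1 scaling factor per library: within 0.05 reads all values were whole in 58 of 60 libraries, and 2 values were not. The lowest value was 1.00, so genes without reads in a library may be missing. Counts of reads given in the text are these recovered reads, and normalised reads are the deposited signal. The precision of low values is set by the recovered reads.

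Each gene was represented by its transcript of highest mean (7648 and 7444 genes). RefSeq symbols (Release 6) were found by CG number, as a locus tag for 7378 and 7186 genes and as a synonym for 218 and 207, and 52 and 51 genes stayed under the name in the table. In a chi-square test the counts of the 48 replicate pairs differed beyond sampling noise (6.67 to 34.0 per degree of freedom).

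Genotype effects were fitted within each table, since each experiment has its own table and the scaling is not given. The fits were on log2(value + 1) with limma-trend (limma 3.58.1, R 4.3.3), using ZT as a factor and Benjamini-Hochberg adjustment over all genes. Fold changes on this scale understate the change of low genes. Models with 1 mean per genotype and ZT gave the change at each time and the joint genotype-by-time test, and a 24 h sine and cosine or ZT as a factor were tested within each genotype. The call threshold was an adjusted p of 0.05. Alternatives were edgeR 4.0.16 and DESeq2 1.42.0 on recovered reads, TMM and median-ratio scaling, pseudocounts of 0.5 and 5, a minimum mean of 10, all transcripts, 1 value per course, a replicate block, and omission of courses, times, shallow libraries and, added after seeing the data, single libraries. On the recovered reads edgeR called 3474 and 1913 genes. The scripts were tested on simulated data. Correlations used Python 3.11.15 with scipy 1.17.1. The Turandot genes and the lists were chosen with earlier results of these data known. Named were the Turandot genes, cbt, the 2 genes of lowest p in each direction per pathway list and the 5 genes of most similar pattern; further genes, among them dome, hop, Mekk1, p38b and the fat body markers, were named after their values were seen.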

Additional observations from a re-analysis of the deposited data

How the results depend on the processing

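In the overexpression experiment all 4 Turandot genes kept their direction and call over all times in every alternative run, and TotM at ZT15 passed with edgeR (adjusted p = 0.0396) but not with limma (0.0525). In the RNAi experiment direction over all times was kept for TotA, TotC and TotM, and calls were lost as follows. Without RNAi course 2 TotA was at -0.55, TotC at -0.74 and TotM at -0.79. With 1 course left out TotA ran from -0.92 to -0.55, TotC from -1.58 to -0.74 and TotM from -1.66 to -0.79. TotC was weaker with edgeR (-0.77), with DESeq2 (-0.95), without ZT3 (-1.16), ZT15 (-0.96) or ZT19 (-1.12), and without conRNAi course 1 (-1.14) or 2 (-1.16), and TotA without ZT15 (-0.61). Fewer libraries entered the fits without a course or time; the cause of the other changes was not tested. Reversed were cbt in RNAi libraries without ZT23 (0.015) and without RNAi course 3 (0.010; -0.10 to 0.010 with a course left out), and TotC at ZT7 with edgeR (0.13).

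With 1 value per course 1986 genes were called for overexpression (3155 with all libraries) and 672 for RNAi (1664), and with 1 course left out the RNAi count ran from 1067 (without conRNAi course 1) to 1899. At single times edgeR called 569 at ZT11 and 437 at ZT23 for overexpression (limma 369 and 810), and 222 at ZT11 and 185 at ZT23 for RNAi (limma 147 and 508).

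Same-numbered courses did not pair throughout: their deviations correlated at -0.21 for overexpression and at 0.003, 0.250 and 0.322 for RNAi. There RNAi courses 2 and 3 correlated best with their own number, and course 1 with control course 2 (0.115). With a replicate block 3158 genes were called for overexpression and 1821 for RNAi, and all Turandot calls of the genotype fits were kept. With that block 71 genes were rhythmic in OE (46 without it), time of day was called for 146 in RNAi (76) and 365 in conRNAi (211), and 404 and 361 genes were called at ZT15 and ZT19 for RNAi (266 and 233). Crossed numbers gave 3257 for overexpression. TotM at ZT15 passed for RNAi with the block (adjusted p = 0.0396). Depth limits the low values, with 1 read of TotM and 2 of TotC in the shallowest RNAi library.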

Other observations

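Genes that neighbour the Turandot genes were looked at as a description, with gene order from the Release 6 annotation. On arm 3R, KaiR1D, which lies just before TotA, was at -0.04 in OE libraries (limma adjusted p = 0.872) and at -0.005 in RNAi libraries (adjusted p = 0.986). Grik, next to TotX, was at 0.14 in OE libraries (adjusted p = 0.659). RpS30, a ribosomal protein gene before KaiR1D, rose by 0.30 in OE libraries (adjusted p = 0.00241) and fell by 0.38 in RNAi libraries (adjusted p = 1.22e-06). Beyond TotX, hdly rose by 0.59 in OE libraries (adjusted p = 0.0205) and Atpalpha fell by 0.42 (adjusted p = 0.000157). On arm 2L, fusl, next to TotM, rose by 0.93 in OE libraries (adjusted p = 1.86e-08), at 144 ± 28.8 in OE and 74.5 ± 9.07 in conOE libraries (SD, n = 12 each), and was at -0.06 in RNAi libraries (adjusted p = 0.706). CG14022, on the other side of TotM, was at 0.20 in OE libraries (adjusted p = 0.255) and rose by 0.42 in RNAi libraries (adjusted p = 0.0207). Farther from TotM, Ncoa6 was at -0.48 in OE libraries (adjusted p = 0.00244), and cype and Acsf2 did not pass there. Over all genes 22.7% were called higher and 18.6% lower in OE libraries, and 9.23% and 13.1% in RNAi libraries. All neighbours given here were named after their values were seen. Adjusted p-values are from limma over all genes.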
